A study of Homo sapiens with 9 samples.

Results

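TGF-beta signaling was described in HNT34 cells after EVI1 knockdown through 10 of the 16612 genes in the table. The genes were listed by name and not by their values: TGFB1, TGFBR1, TGFBR2, SMAD2, SMAD3, SMAD4, SMAD6, SMAD7, SKI and SKIL. All 10 were present and passed the filter on low counts. HNT34 is a human acute myeloid leukemia (AML) cell line with a 3q26 rearrangement and high EVI1 expression. An shRNA directed at EVI1 (sh#16 or sh#87), or a non-targeting control (NT), was delivered in the same lentiviral vector with a red fluorescent protein and a puromycin marker, and cells were collected 3 days after selection. PolyA-selected RNA of 3 libraries per group was sequenced. Libraries titled 87 carry the number 18 in the characteristics field, and the title was used. All groups come from 1 cell line, and the labels do not say whether libraries of a group came from separate cultures, so the p-values below measure the spread between libraries, which may be technical.

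TGF-beta 1, encoded by TGFB1, is a secreted growth inhibitor of hematopoietic cells. It binds the type II receptor TGFBR2, which activates the type I receptor TGFBR1, and TGFBR1 phosphorylates SMAD2 and SMAD3, which enter the nucleus with SMAD4. SMAD6 and SMAD7 are inhibitory SMADs and are themselves induced by the pathway, while SKI and SKIL (SnoN) are corepressors that bind SMAD complexes. EVI1 is known to bind SMAD3 and to repress SMAD-dependent transcription. The files hold RNA levels and no measure of SMAD phosphorylation or protein.

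The libraries held between 17096170 and 43502389 counts, and the members between 218 and 21029 counts per library. Levels are given as CPM, counts divided by the library size after scaling with edgeR's TMM factors. MECOM, the gene of EVI1, lay at 571, 504 and 440 CPM in the NT libraries, at 145, 143 and 145 CPM with sh#16 and at 109, 107 and 106 CPM with sh#87. The log2 fold change of MECOM was -1.81 (standard error 0.09) with sh#16 and -2.23 (standard error 0.09) with sh#87. In MECOM and in the mitochondrial share, the NT libraries differed more among themselves than the libraries of either shRNA did. This did not hold for every gene. TGFBR1 had an SD of 2.39 CPM in NT, 4.47 CPM with sh#16 and 6.34 CPM with sh#87 (n = 3 each). Mitochondrially encoded genes took 15.9% of the counts in NT replicate 1, 11.5% in replicate 2 and 4.69% in replicate 3, against 2.69% to 2.88% with sh#16 and 4.62% to 5.97% with sh#87. With these genes removed, edgeR still called 5 members for the knockdown libraries as 1 group, 7 for sh#16, 6 for sh#87, and 3 that differed between them. Values that turn on NT replicate 1 are given with and without it. Of 8 markers of AML blasts, 6 were in the table and summed to between 2005 and 2121 CPM in NT, to between 629 and 637 CPM with sh#16 and to between 352 and 357 CPM with sh#87. None of 8 erythroid markers was in the table. ITGA2B, the only megakaryocyte marker of 5 in the table, took between 108 and 267 CPM in NT and between 31.0 and 66.4 CPM in the knockdown libraries. Of the other lists, 2 of 4 monocyte markers summed to at most 14.1 CPM, 3 of 5 lymphoid markers to at most 47.5 CPM, and 3 of 7 epithelial and fibroblast markers to between 100 and 138 CPM. The part of these shifts in the results below was not tested, and in bulk RNA fewer cells of a kind and less RNA per cell cannot be told apart.

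With both shRNAs as 1 group of 6 libraries, 3 members rose (SMAD7, SKI and SMAD3) and 2 fell (SMAD4 and TGFBR2) at an adjusted p of at most 0.01 by edgeR's quasi-likelihood test. Among all 16312 genes tested, 30.1% rose and 29.7% fell by the same test, so the share of members that changed lay near the background. None of the members was a differentially expressed gene (DEG), a call that also needs a log2 fold change of 2 or more in size, against 15.4% of all genes. DESeq2 and limma-voom likewise called 0 members DEGs, with SMAD7 furthest from 0 in each tool. In edgeR, 6 members had an unadjusted p under 0.05, none of them past the fold threshold. The share of all genes under that unadjusted p was not counted. It is at least the share that rose or fell above, so the 6 do not set the members apart. The median absolute log2 fold change was 0.42 over the members and 0.83 over all genes tested. In 4 members (SKI, SMAD3, SMAD7 and TGFBR1) every knockdown library lay above every NT library, and in 2 (SMAD4 and TGFBR2) every one lay below. Of all genes, 33.9% lay wholly above and 32.1% wholly below.

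The ligand gene did not pass the test with either shRNA. TGFB1 lay at 317, 414 and 457 CPM in NT, at 437, 455 and 435 CPM with sh#16 and at 460, 409 and 420 CPM with sh#87. NT replicate 1 was the lowest library, and the other 2 NT libraries lay within the range of the knockdown libraries. The log2 fold change with both shRNAs was 0.14 (standard error 0.12, adjusted p = 0.298 by edgeR), and -0.01 without NT replicate 1. Per kb of its canonical transcript, TGFB1 had the highest level of the members in every group, 142 ± 25.9 CPM per kb (SD, n = 3) in NT.

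The receptor genes moved in opposite directions. TGFBR1, the type I receptor kinase (RefSeq GRCh38.p14 chromosome 9, 99103647 to 99154192), lay at 93.6, 95.6 and 90.9 CPM in NT, at 164, 155 and 161.2 CPM with sh#16 and at 106, 118 and 111 CPM with sh#87. The groups did not overlap, and sh#16 stood furthest from NT. On the log2 scale TGFBR1 rose by 0.78 with sh#16 (standard error 0.06, adjusted p = 4.44e-06 by edgeR) and 0.26 with sh#87 (standard error 0.06, adjusted p = 0.00342). The sh#87 call was lost without NT replicate 2 (adjusted p = 0.0100409), without sh#87 replicate 2 (0.0163), without sh#87 replicate 3 (0.0114), with only NT and sh#87 in the fit (0.0140) and with the replicate number as a block (0.0125). In the fit of 2 groups, which counts the gap between the shRNAs as spread, the log2 fold change of TGFBR1 was 0.54 with an adjusted p of 0.0107 by edgeR, and DESeq2 gave 0.00346.

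TGFBR2, the type II receptor that binds the ligand first (chromosome 3, 30606356 to 30694142), lay at 160, 150 and 156 CPM in NT, at 124, 120 and 118 CPM with sh#16 and at 110, 117 and 112 CPM with sh#87. Every knockdown library lay below every NT library, and the shRNAs gave neighboring levels. TGFBR2 changed by -0.37 on the log2 scale with sh#16 (standard error 0.06, adjusted p = 0.000291 by edgeR) and -0.46 with sh#87 (standard error 0.06, adjusted p = 5.29e-05). The difference between the shRNAs was -0.09 (adjusted p = 0.226 by edgeR).

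Among the receptor-regulated SMADs, SMAD3 rose and SMAD2 did not pass the test. SMAD3 (chromosome 15, 67065602 to 67195169) lay at 29.9, 32.5 and 33.1 CPM in NT, at 48.4, 46.5 and 46.6 CPM with sh#16 and at 37.3, 41.4 and 38.3 CPM with sh#87. Each sh#16 library lay above each sh#87 library, and each of those above NT. SMAD3 rose by 0.57 on the log2 scale with sh#16 (standard error 0.07, adjusted p = 0.000102 by edgeR) and 0.29 with sh#87 (standard error 0.07, adjusted p = 0.00467). The sh#87 call was lost, at adjusted p between 0.0104 and 0.0222, without NT replicate 2, sh#16 replicate 2, sh#16 replicate 3, sh#87 replicate 2 or sh#87 replicate 3, with only NT and sh#87 in the fit, and with the replicate number as a block. With both shRNAs the log2 fold change of 0.44 had an adjusted p of 0.00456 by edgeR, which rose above the threshold without NT replicate 1 (0.0183), NT replicate 2 (0.0176) or sh#16 replicate 2 (0.0103), and with the block (0.0141).

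SMAD2, the other receptor-regulated SMAD, lay at 284, 261 and 262 CPM in NT, at 288, 268 and 273 CPM with sh#16 and at 227, 250 and 249 CPM with sh#87. The sh#16 libraries overlapped NT, and the sh#87 libraries were the 3 lowest. For SMAD2 the log2 fold change was 0.04 with sh#16 (adjusted p = 0.631 by edgeR) and -0.15 with sh#87 (adjusted p = 0.0584). With both shRNAs it was -0.06, and 0.05 under upper-quartile normalization, which moved the median over all genes upward by 0.11.

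SMAD4, the common partner that SMAD2 and SMAD3 need to act on most target genes, fell with both shRNAs. It lay at 145, 138 and 134 CPM in NT, at 99.6, 94.0 and 96.4 CPM with sh#16 and at 85.5, 98.6 and 88.2 CPM with sh#87. The knockdown libraries lay wholly below NT, and the ranges of the shRNAs overlapped. The log2 fold change of SMAD4 was -0.53 with sh#16 (standard error 0.07, adjusted p = 0.000118 by edgeR) and -0.62 with sh#87 (standard error 0.07, adjusted p = 3.14e-05), which left 69.5% and 65.2% of the NT level. SMAD4 (chromosome 18, 51030213 to 51085042) shares its chromosome with SMAD7 and SMAD2, which rose and did not pass the test.

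The inhibitory SMADs gave unlike results. SMAD7, which blocks TGFBR1 and recruits ubiquitin ligases to it, lay at 9.37, 10.4 and 12.04 CPM in NT, at 22.0, 22.4 and 22.6 CPM with sh#16 and at 28.8, 30.4 and 28.8 CPM with sh#87. The groups did not overlap, and the lowest knockdown library lay well above the highest NT library. SMAD7 rose by 1.07 on the log2 scale with sh#16 (standard error 0.10, adjusted p = 1.09e-05 by edgeR) and 1.47 with sh#87 (standard error 0.10, adjusted p = 1.04e-06). These are levels of 210% and 276% of NT, the highest of the members. SMAD6, known above all as an inhibitor of BMP signaling, lay at 75.0, 91.5 and 114 CPM in NT, at 101, 102 and 97.1 CPM with sh#16 and at 105, 103 and 95.1 CPM with sh#87. All knockdown libraries lay within the NT range. The log2 fold change of SMAD6 with both shRNAs was 0.10 (standard error 0.12, adjusted p = 0.433 by edgeR), and -0.04 without NT replicate 1.

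Because only SMAD7 of this pair rose, the bases before their most upstream RefSeq starts (GRCh38.p14) are shown, each read along the strand of its gene. RefSeq windows were found for 9 of the 10 members, 24 windows in all, and a promoter of SKI was not analysed here. Capitals mark matches, on either strand, to the palindromic SMAD binding element GTCTAGAC, the short SMAD motif CAGAC, the AP-1 site TGACTCA or the GATA motif GATAAG. The SMAD7 window is chr18:48950966-48951215 on the minus strand and the SMAD6 window is chr15:66701986-66702235 on the plus strand.
SMAD7: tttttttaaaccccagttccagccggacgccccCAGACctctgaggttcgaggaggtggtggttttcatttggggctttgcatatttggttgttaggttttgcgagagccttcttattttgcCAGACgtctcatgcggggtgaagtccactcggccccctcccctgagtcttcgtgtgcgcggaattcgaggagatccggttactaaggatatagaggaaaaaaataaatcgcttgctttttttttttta
SMAD6: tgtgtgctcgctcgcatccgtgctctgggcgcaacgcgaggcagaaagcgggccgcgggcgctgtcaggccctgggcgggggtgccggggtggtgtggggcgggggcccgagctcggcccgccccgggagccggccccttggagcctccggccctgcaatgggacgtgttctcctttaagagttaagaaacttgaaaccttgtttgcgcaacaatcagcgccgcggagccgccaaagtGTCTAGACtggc
The SMAD7 window held 2 short motifs, with first bases at -217 and -128 from the start, and no palindrome. The windows before the later SMAD7 starts held no palindrome either. The SMAD6 window held 1 palindrome with its first base at -12 and no short motif. Of 35116 windows of 250 bases over all genes, 0.182% held the palindrome, 38.0% the short motif, 4.20% the AP-1 site and 5.65% the GATA motif. A match is a description of the letters and not a site shown to be bound. Bases outside the windows, such as those after a start, were not searched. The windows therefore do not show that SMAD7 lacks a palindrome.

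The corepressors SKI and SKIL, which are paralogues, also parted. SKI (chromosome 1, 2228319 to 2310213) lay at 140, 149 and 161.8 CPM in NT, at 234, 236 and 234 CPM with sh#16 and at 320, 314 and 311 CPM with sh#87. The groups did not overlap, and the knockdown groups each spanned a narrow range. SKI rose by 0.64 on the log2 scale with sh#16 (standard error 0.06, adjusted p = 2.12e-05 by edgeR) and 1.07 with sh#87 (standard error 0.06, adjusted p = 5.92e-07). SKIL (chromosome 3, 170357715 to 170396849) lay at 52.7, 45.9 and 47.2 CPM in NT, at 28.1, 27.8 and 26.9 CPM with sh#16 and at 44.8, 50.2 and 47.8 CPM with sh#87. The sh#16 libraries lay wholly below both other groups, and the sh#87 libraries overlapped NT. SKIL changed by -0.81 on the log2 scale with sh#16 (standard error 0.08, adjusted p = 1.73e-05 by edgeR). With sh#87 it was -0.03 (adjusted p = 0.738 by edgeR), and 0.09 under upper-quartile normalization. As 1 group, the shRNAs gave -0.37 (adjusted p = 0.155 by edgeR), and the average of the separate shRNA contrasts gave -0.42 with an adjusted p of 0.000299.

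**Figure D1:**
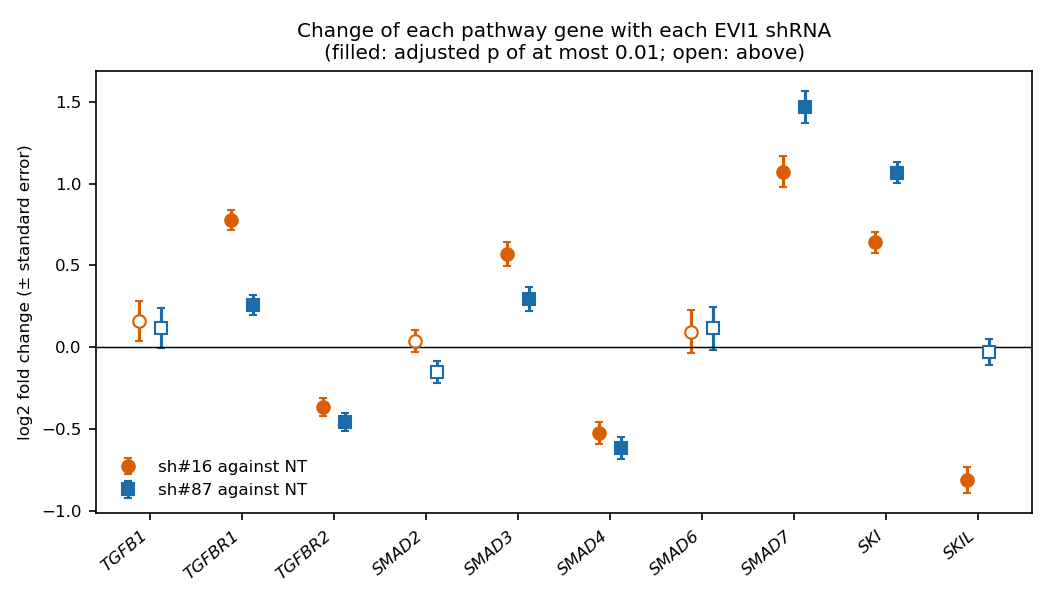
Log2 fold change of each pathway gene with sh#16 (circles) and sh#87 (squares) against NT, with the standard error of the edgeR fit; filled symbols passed an adjusted p of 0.01. Both shRNAs share the 3 NT libraries. SMAD7 reached 1.07 and 1.47, and SKIL lay at -0.81 with sh#16 and -0.03 with sh#87.

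With sh#16 alone, 4 members rose (TGFBR1, SMAD3, SMAD7 and SKI) and 3 fell (TGFBR2, SMAD4 and SKIL), against 29.8% and 30.2% of all genes. With sh#87 the same 4 rose and 2 fell (TGFBR2 and SMAD4), against 34.3% and 33.6%. The median absolute log2 fold change of the members was 0.55 with sh#16 and 0.28 with sh#87, and that of all genes was 0.75 and 0.93.

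A direct test compared sh#87 with sh#16. SKI and SKIL were higher with sh#87 than with sh#16, and TGFBR1 was lower, against 8.29% of all genes higher and 9.42% lower. The log2 difference, sh#87 minus sh#16, was 0.79 for SKIL (standard error 0.08, adjusted p = 0.000256 by edgeR), 0.42 for SKI (0.06, adjusted p = 0.00156) and -0.52 for TGFBR1 (0.06, adjusted p = 0.00046). The SKI call was lost without any 1 of the sh#16 libraries (adjusted p between 0.0105 and 0.0107). For SMAD7 it was 0.39 (adjusted p = 0.0122 by edgeR) and for SMAD3 -0.27 (adjusted p = 0.0189), and neither passed with all 9 libraries in the edgeR fit. Without NT replicate 1 both passed (0.00188 for SMAD7 and 0.00627 for SMAD3), and without NT replicate 3 likewise (0.000646 and 0.00632). SMAD7 also passed under RLE (0.00815) and upper-quartile normalization (0.00883) and with limma-voom (0.00809). With DESeq2 both passed, which made 5 members, and with only sh#16 and sh#87 in the fit SMAD2 passed as well, which made 6. MECOM itself was lower with sh#87, with a log2 difference of -0.43 (adjusted p = 0.00661 by edgeR).

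Ratios of counts between related members within a library do not depend on how libraries are scaled. The ratio of TGFBR2 to TGFBR1 was 1.71, 1.57 and 1.71 in NT, 0.756, 0.771 and 0.733 with sh#16 and 1.04, 0.991 and 1.01 with sh#87. NT cells thus held more TGFBR2 than TGFBR1 counts, and sh#16 cells held fewer. The ratio of SMAD3 to SMAD2 was 0.119 ± 0.0117 (SD, n = 3) in NT, 0.171 ± 0.00283 (SD, n = 3) with sh#16 and 0.161 ± 0.00625 (SD, n = 3) with sh#87. The ratio of SMAD7 to SMAD6 was 0.115 ± 0.0098 (SD, n = 3) in NT, 0.224 ± 0.00821 (SD, n = 3) with sh#16 and 0.290 ± 0.0151 (SD, n = 3) with sh#87. The inhibitory pair thus moved furthest toward SMAD7 with sh#87. The ratio of SKIL to SKI was 0.325 ± 0.0452 (SD, n = 3) in NT, 0.118 ± 0.00248 (SD, n = 3) with sh#16 and 0.151 ± 0.0104 (SD, n = 3) with sh#87, so that it fell with both shRNAs although SKIL itself fell only with sh#16. The difference in mean log2 ratio, knockdown minus NT, was -0.93 for TGFBR2 to TGFBR1, 0.49 for SMAD3 to SMAD2, 1.15 for SMAD7 to SMAD6 and -1.28 for SKIL to SKI. For each ratio a 2-sided exact permutation test of 6 libraries against 3 gave p = 0.0119, the smallest that the 84 splits allow, and 0.0119 after adjustment over the 4 ratios. A ratio shows unequal change and not which gene changed. How often the ratios of other gene pairs separate in this way was not counted. Of single genes, 33.9% lay wholly above NT and 32.1% wholly below, so such separation is common here.

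Levels between genes were compared per kb of the canonical transcript. SMAD2 was left out of this order, since its canonical model of 34626 bases sets its value. In NT the order from high to low was TGFB1, TGFBR2, SKI, SMAD6, SMAD4, TGFBR1, SKIL, SMAD3 and SMAD7, and SKI and SMAD6 were the only neighbors with overlapping ranges. TGFBR2 lay at 34.3 ± 1.10 CPM per kb and SMAD7 at 3.17 ± 0.404 CPM per kb (SD, n = 3 each). With both shRNAs SKI moved to second place, with 38.6 ± 0.182 CPM per kb with sh#16 and 51.8 ± 0.808 CPM per kb with sh#87 (SD, n = 3 each). SMAD7 passed SKIL with both shRNAs, at 6.69 ± 0.0956 against 3.86 ± 0.0903 CPM per kb with sh#16 and at 8.78 ± 0.275 against 6.66 ± 0.382 CPM per kb with sh#87 (SD, n = 3 each). Neighbors with overlapping ranges were TGFBR2 and SMAD6 in both knockdown groups, and SKIL and SMAD3 with sh#87.

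No member being a DEG, the genes with the most similar pattern were sought for SMAD7, the member of smallest adjusted p. By Pearson correlation of log2 CPM over the 9 libraries they were PGS1, FARP2 and ABCA7, each with r = 0.999. PGS1 went from 23.95 ± 3.43 CPM in NT to 54.5 ± 1.79 CPM with sh#16 and 75.4 ± 2.02 CPM with sh#87 (SD, n = 3 each). The libraries form 3 groups, and 2135 of 16311 other genes had r above 0.95, so such values are common here.

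In the reference genome SKIL lies 694 kb from MECOM on chromosome 3. On chromosome 1 of that genome, SKI lies 759 kb from PRDM16, the paralogue of MECOM. HNT34 carries a 3q26 rearrangement, so the genes next to MECOM on the rearranged chromosome may differ, and their order there was not examined. Of the 8 genes of the table annotated between MECOM and SKIL, 5 fell and 0 rose with both shRNAs as 1 group, by edgeR at an adjusted p of at most 0.01, against 29.7% and 30.1% of all genes. They were MYNN (log2 fold change -0.82), LRRC34 (-1.94), SEC62 (-1.09), GPR160 (-5.27, from 5.06 CPM in NT to 0.0216 and 0.246 CPM) and PHC3 (-0.59), and the others were TERC (0.84, adjusted p = 0.375), ACTRT3 (-0.84, adjusted p = 0.114) and PRKCI (-0.11, adjusted p = 0.411). Taken singly, each of the 5 passed with each shRNA except PHC3 with sh#87 (-0.45, adjusted p = 0.0131 by edgeR). Of all genes, 30.2% fell with sh#16 and 33.6% with sh#87. The 5 were picked by the call on these same libraries, so passing singly adds no separate evidence. SEC62 went from 140 ± 28.9 CPM in NT to 71.3 ± 1.48 CPM with sh#16 and 60.4 ± 4.26 CPM with sh#87 (SD, n = 3 each), and thus fell with sh#87 too, unlike SKIL. Of the 7 genes between SKI and PRDM16, 3 rose (MORN1, RER1 and PRXL2B, log2 fold changes of 1.34, 0.51 and 1.32) and 0 fell, against the same shares of all genes, so the share that rose lay near the background. MORN1, next to SKI, went from 8.15 ± 0.77 CPM in NT to 15.01 ± 0.835 CPM with sh#16 and 26.3 ± 0.258 CPM with sh#87 (SD, n = 3 each). PEX10, PANK4, TNFRSF14 and TTC34 did not pass, at adjusted p between 0.0403 and 0.362. With a single shRNA, PEX10 fell with sh#16 (-0.35, adjusted p = 0.00487 by edgeR) and PANK4 rose with sh#87 (0.57, adjusted p = 0.000278). RER1 and PEX10 overlap in RefSeq, and whether reads were counted by strand is not stated.

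The wider pathway was covered by 117 other listed genes, of which 91 were in the table and all 91 were tested. With both shRNAs, 24 rose, 33 fell and 34 did not pass, against the 30.1% and 29.7% of all genes given above. DEGs were 9 of the genes that rose and 6 of those that fell. All values below are log2 fold changes with both shRNAs against NT by edgeR, unless a single shRNA is named. The counts given for each list below stand against the same shares of all genes, and no list was tested as a set. Genes of a list that lie outside the rule for named genes (given with the methods) were chosen after their values were seen. They are INHBC, BMP4, GDF11, SMAD5, BMPR1B, FKBP1A, ZFYVE16, DAB2, LTBP1, LTBP2, NEDD4L, WWP1, EP300, CDKN1A, JUNB, SNAI1, KLF10, ID1, TAB1, MYC, CDC25A and THBS1.

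Of 7 ligand genes, 1 rose and 3 fell. INHBA, the activin A subunit, fell by 3.37 (standard error 0.27, adjusted p = 2.40e-06) from 2.59 ± 0.402 CPM in NT to 0.237 ± 0.0366 CPM with sh#16 and 0.263 ± 0.137 CPM with sh#87 (SD, n = 3 each). INHBE, another activin subunit, held 623 counts in the NT libraries together and 8 in the 6 knockdown libraries, with at most 3 in each. Its NT level was 159 times that of the knockdown libraries (95% exact interval for counting error only, 80.1 to 369). BMP4 changed by -1.88. INHBC held 5 counts in the NT libraries together and 101 in the knockdown libraries, a level 9.91 times higher (interval 4.11 to 31.2). Ligands of the same family at higher levels, such as GDF11 at 40.6 ± 2.98 CPM in NT, did not pass (-0.16, adjusted p = 0.11).

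Genes of latency and activation, which hold TGF-beta in its inactive complex or release it, counted 2 that rose and 5 that fell of 13. NRROS, which anchors latent TGF-beta on myeloid cells, fell by 2.34 (standard error 0.21) from 87.5 ± 28.0 CPM in NT to 20.3 ± 1.02 CPM with sh#16 and 14.2 ± 1.62 CPM with sh#87 (SD, n = 3 each). Of the 4 latent TGF-beta binding protein genes, LTBP1 fell by 1.19 and LTBP3 by 1.89, LTBP4 rose by 1.26, and LTBP2 did not pass (-0.69, adjusted p = 0.066). ITGB8, an integrin subunit that activates latent TGF-beta, changed by 1.93 to at most 2.63 ± 0.382 CPM (SD, n = 3). THBS1, which can also activate latent TGF-beta, lay at 199 ± 10.7 CPM in NT, 163.1 ± 1.59 CPM with sh#16 and 441 ± 14.8 CPM with sh#87 (SD, n = 3 each). It was lower with sh#16 (-0.29, adjusted p = 0.00227 by edgeR) and higher with sh#87 (1.15, adjusted p = 2.78e-07).

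Of 10 other receptors of the superfamily, 1 rose and 3 fell. ENG (endoglin), a TGF-beta co-receptor, fell by 1.52 (standard error 0.23) and lay at 238 ± 97.3 CPM in NT, 95.9 ± 1.93 CPM with sh#16 and 69.5 ± 2.32 CPM with sh#87 (SD, n = 3 each). ACVR2B, an activin type II receptor, fell by 1.82 (standard error 0.10) from 82.9 ± 3.16 CPM to 25.6 ± 0.673 and 21.4 ± 1.31 CPM (SD, n = 3 each). ACVR1C, a type I receptor, held 4 counts in the NT libraries together and 241 in the knockdown libraries, a level 29.6 times higher (95% exact interval for counting error only, 11.4 to 109). BMPR1B held 48 counts in the NT libraries together and 2 in the knockdown libraries, and its NT level was 48.9 times higher (interval 12.8 to 416).

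Proteins that assist the receptors counted 4 genes that rose and 3 that fell of 8. ZFYVE9 (SARA), which brings SMAD2 and SMAD3 to the receptor, rose by 1.73 (standard error 0.14), from 3.32 ± 0.248 CPM in NT to 12.01 ± 0.502 CPM with sh#16 and 10.1 ± 0.559 CPM with sh#87 (SD, n = 3 each). HGS, an endosomal sorting protein, rose by 1.19, FKBP1A by 0.94 and ZFYVE16 by 0.77. TGFBRAP1 fell by 1.20, PPM1A, a phosphatase of SMAD2 and SMAD3, by 0.54, and DAB2 by 0.46. SMAD1, a BMP receptor-regulated SMAD, fell by 1.96 (standard error 0.12) from 23.0 ± 3.49 CPM in NT to 6.35 ± 0.386 and 5.48 ± 0.241 CPM (SD, n = 3 each), whereas SMAD5 did not pass (0.05).

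Ubiquitin ligases and deubiquitinases of the pathway counted 4 that rose and 6 that fell of 11. STUB1, a ubiquitin ligase of SMAD3, rose by 1.31, WWP1 and USP4, a deubiquitinase of TGFBR1, each by 0.64. NEDD4L, another ligase, held 5 counts in the NT libraries together and 62 in the knockdown libraries, a level 6.08 times higher (interval 2.47 to 19.4). USP15 and UCHL5, deubiquitinases that act on the receptor complex, fell by 0.94 and 0.96. Of 12 other corepressors, 2 rose and 6 fell. ZEB1 had the highest NT level among those named, 446 ± 110 CPM, and fell by 2.68 (standard error 0.15) to 76.5 ± 2.41 CPM with sh#16 and 62.8 ± 4.15 CPM with sh#87 (SD, n = 3 each). TGIF2 fell by 1.56. SKOR1, a relative of SKI and SKIL, held 6 counts in the NT libraries together and 156 in the knockdown libraries, a level 12.8 times higher (95% exact interval for counting error only, 5.73 to 35.3). Of 4 coactivators, 3 fell: CREBBP by 1.29, KAT2B by 1.35 and EP300 by 0.56.

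Genes induced by TGF-beta in many cell types counted 5 that rose and 1 that fell of 13. COL1A1, a collagen gene, went from 0.116 ± 0.066 CPM in NT to 26.4 ± 0.498 CPM with sh#16 and 29.3 ± 1.11 CPM with sh#87 (SD, n = 3 each), which is 7.83 on the log2 scale (standard error 0.23, adjusted p = 1.07e-08). It held 1 to 4 counts per NT library and 481 to 1200 per knockdown library. The size of this change thus rests on few NT counts. COL1A1 was also on the list of fibroblast markers, of which COL1A2 and DCN were not in the table. CDKN1A, the cell cycle inhibitor p21, rose by 2.34, JUNB by 1.40 and SNAI1 by 1.37. BHLHE40 fell by 2.03 (standard error 0.19). The 7 remaining genes of the list did not pass with both shRNAs as 1 group. With sh#16 alone, 5 genes of the list rose and 2 fell, against 29.8% and 30.2% of all genes. With sh#87 alone 8 rose and 2 fell, against 34.3% and 33.6% of all genes. KLF10 fell with each shRNA taken singly, by 0.80 with sh#16 (adjusted p = 3.05e-05 by edgeR) and 0.30 with sh#87 (adjusted p = 0.00877).

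The BMP target genes of the ID family, inhibitors of differentiation that lack a DNA-binding domain, rose in 3 of 3 cases, against 30.1% of all genes. ID4 and ATOH8 of the list were not in the table. ID3 went from 0.53 ± 0.321 CPM in NT to 33.8 ± 0.775 CPM with sh#16 and 94.5 ± 3.34 CPM with sh#87 (SD, n = 3 each), which is 6.85 on the log2 scale (standard error 0.68). ID2 went from 20.4 ± 0.399 to 65.5 ± 1.03 and 106 ± 7.10 CPM (SD, n = 3 each), and ID1 rose by 1.10. Each of the 3 was also higher with sh#87 than with sh#16, against 8.29% of all genes. Of the genes that TGF-beta represses, MYC changed by -1.03 (adjusted p = 0.0263 by edgeR) and CDC25A by 0.22 (adjusted p = 0.0712), so that 0 of 2 passed. Of these, 1 had an unadjusted p under 0.05, a share not counted over all genes. With each shRNA alone MYC did pass, at -0.51 with sh#16 and -1.87 with sh#87. CDC25A rose with sh#16 alone (0.32, adjusted p = 0.00477 by edgeR) and did not pass with sh#87 (0.11, adjusted p = 0.226). In the TAK1 branch, which runs beside the SMADs, 2 of 8 genes rose (MAPK8 by 0.82 and TAB1 by 0.49) and 2 fell (TAB2 by 1.54 and DAXX by 0.44, a call lost without NT replicate 2 at an adjusted p of 0.0130).

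**Figure D2:**
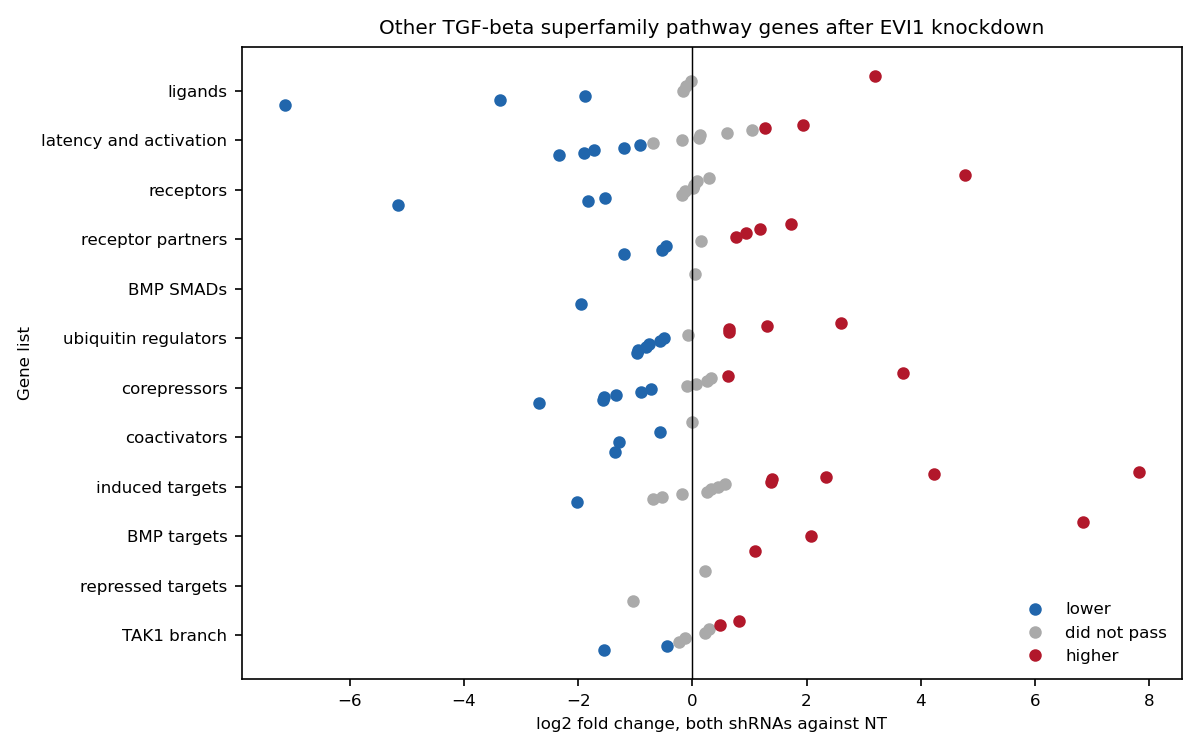
Log2 fold change of the other pathway genes with both shRNAs against NT, by list; each point is a gene, red where it rose, blue where it fell and gray where it did not pass an adjusted p of 0.01. COL1A1 (7.83) and ID3 (6.85) lie furthest to the right and INHBE (-7.14) furthest to the left. COL1A1 held at most 4 counts per NT library, and INHBE at most 3 per knockdown library.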

How the data were processed

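Groups were taken from the titles of the 9 HNT34 libraries (NT, sh#16 and sh#87, 3 each). Estimated counts, not normalized, were deposited by the authors as 1 table of 16612 gene symbols. All values were whole numbers. The header names salmon, whereas the methods name STAR gene counts with ENSEMBL annotation, and the submitters' processing notes name GRCh38, STAR and FastQC. The header stands 1 column left of the values and was read as naming them in turn. How genes were chosen for the table is not given in the sources used here.

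Counts were normalized (TMM), filtered (filterByExpr) and tested with the quasi-likelihood test of edgeR 4.0.16 in R 4.3.3, with Benjamini-Hochberg adjustment over all 16312 genes tested. Both shRNAs as 1 group were fitted in 2 groups, and single shRNAs in 3 groups with a shared spread. Genes with an adjusted p of 0.01 or less had changed, and a DEG also had a log2 fold change of 2 or more in size. Standard errors are those the test statistic implies. The members and the lists were chosen with earlier results of these data known. Named were the members, MECOM, and per list the 2 highest and 2 lowest genes that passed in all 3 comparisons with NT in 1 direction, reached 1 CPM in the higher group and showed no overlap between knockdown and NT libraries, the genes between MECOM and SKIL and between SKI and PRDM16, and the 3 genes closest to SMAD7 (log2 of CPM plus 0.5). Some genes that this rule selects are not reported here. Ratios were tested with scipy's exact permutation test. Alternatives were RLE and upper-quartile normalization, DESeq2 1.42.0, limma-voom (limma 3.58.1), other filters, removal of mitochondrially encoded genes, an adjusted p of 0.05, a replicate block, fits of other groups, and leaving out each library in turn. The fit was tested on simulated counts in which few genes changed, and alike with both shRNAs. In the data many genes changed and the shRNAs differed, so the simulation does not bear on the library scaling or the fit of 2 groups. No 2 libraries were identical. Positions and promoter windows came from RefSeq (GRCh38.p14), and transcript lengths from the canonical transcripts of GENCODE on GRCh37.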

Additional observations from a re-analysis of the deposited data

Results flagged for a closer look

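Several differences between the shRNAs passed the direct test of sh#87 against sh#16 by edgeR, all relative to the same 9-library fit. Among the members the log2 differences, sh#87 minus sh#16, were 0.79 for SKIL, 0.42 for SKI and -0.52 for TGFBR1. MECOM differed by -0.43, a call that was lost without any 1 of the 6 knockdown libraries, without NT replicate 2, with the replicate block and under RLE and upper-quartile normalization. Of the 91 other pathway genes tested, 9 were higher and 6 lower with sh#87 than with sh#16, against 8.29% and 9.42% of all genes. The higher ones were ID3 (1.48), THBS1 (1.44), SKOR1 (1.20), ID2 (0.70), KLF10 (0.50), ID1 (0.49), TSC22D1 (0.40), MAP3K7 (0.40) and USP4 (0.32), and the lower ones MYC (-1.36), MMP2 (-1.26), BHLHE40 (-0.71), CTBP2 (-0.46), HDAC1 (-0.44) and SMAD5 (-0.35). The shRNA that stood further from NT was not the same for all of these genes. ID3 rose further with sh#87, whereas MMP2 changed by 1.53 with sh#16 and 0.27 with sh#87, and KLF10 by -0.80 and -0.30. THBS1 was lower than NT with sh#16 and higher with sh#87. SKI rose further with sh#87, TGFBR1 rose further with sh#16, and SKIL fell with sh#16 only. No outlier test was run on groups of 3 libraries, so no library was tested for standing apart.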

How the results depend on the processing

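With both shRNAs, sh#16 or sh#87 against NT, the count of members that changed stayed within 1.5 times of its value under every alternative run (4 to 7, 7 to 7 and 4 to 6), and so did that of the other pathway genes (51 to 68). With each library left out in turn these counts were 4 to 6, 7 to 7, 4 to 6 and 51 to 58. The count of members that differed between the shRNAs, 3, was 5 with DESeq2, 5 at an adjusted p of 0.05, 6 with only the groups compared in the fit, and between 2 and 5 with a library left out, 5 without NT replicate 1 or NT replicate 3 and 2 without any 1 sh#16 library. The log2 differences of the 4 ratios ran from -0.98 to -0.88 (TGFBR2 to TGFBR1), 0.41 to 0.54 (SMAD3 to SMAD2), 1.10 to 1.22 (SMAD7 to SMAD6) and -1.35 to -1.17 (SKIL to SKI). The p of each ratio was the smallest its number of splits allows, and it says nothing about stability. Directions that turned with these alternatives belonged to values that did not pass the test. Under upper-quartile normalization SMAD2 turned to 0.0547 with both shRNAs and SKIL to 0.0883 with sh#87. Without NT replicate 1, TGFB1 turned with both shRNAs (range with a library left out -0.0111 to 0.235) and with sh#87 (-0.0273 to 0.219), SMAD6 with both (-0.0431 to 0.254), sh#16 (-0.0576 to 0.240) and sh#87 (-0.0296 to 0.268), and SKIL with sh#87 (-0.0726 to 0.0248). SMAD2 with sh#16 turned without NT replicate 3 (-0.00711 to 0.0618), SKIL with sh#87 also without sh#87 replicate 1 (0.0193), and the SMAD6 difference between the shRNAs without sh#16 replicate 3 or sh#87 replicate 1 (-0.00769 to 0.0625). The cause was not tested. No clear pairing by replicate number was seen (correlations of deviations from -0.184 to 0.0989 over 9 pairs), but pairing was not tested. Between NT and sh#16 the correlations were 0.0989, 0.0849 and 0.0750, and those with sh#87 were all negative. With the replicate number as a block, 4 members changed with both shRNAs, 7 with sh#16, 4 with sh#87, 3 differed between the shRNAs, and 54 other pathway genes changed. The member calls lost with the block were SMAD3 with both shRNAs, and TGFBR1 and SMAD3 with sh#87. The block could not change the mean ratio differences (-0.93, 0.49, 1.15 and -1.28), and no test was run on them. The NT group held only 3 libraries, of which replicate 1 had the highest mitochondrial share. Depth limits the genes with at most 3 counts per NT library, and COL1A1 with at most 4.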
